A study of Mus musculus with 8 samples.

Results

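The genes described here encode 10 mouse matrix and cell-surface proteins. They are the thrombospondins Thbs1, Thbs2 and Thbs3, the adhesive glycoproteins fibronectin (Fn1) and vitronectin (Vtn), the matricellular proteins tenascin C (Tnc), periostin (Postn), SPARC (Sparc) and osteopontin (Spp1), and the receptor Cd44. They were picked by gene symbol and not by a threshold on measured values, but with earlier results of these data known. All 10 were listed in both expression tables, among 18645 genes in the table of hepatic stellate cells (HSCs) and 17408 genes in the table of bone marrow-derived macrophages (BMDMs).

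Matricellular proteins are secreted into the extracellular matrix, where they act less as scaffold than as signals to cells. They bind integrins, CD36, CD47, syndecans or CD44, as well as proteases and growth factors, and thereby set adhesion, migration and the activity of TGF-β. In injured liver, activated HSCs, the collagen-producing myofibroblast-like cells, and macrophages are known sources of these proteins, and fibronectin and osteopontin are long-used readouts of fibrogenesis.

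RNA was sequenced from 8 libraries, with 2 vehicle and 2 auranofin libraries in each cell type. Auranofin is an oral gold compound used against rheumatoid arthritis. The HSCs were primary cells from the liver of C57BL/6 mice, purified on a density gradient and activated in culture. For 12 h they received vehicle, labelled as untreated, or auranofin at 0.03 µM. The BMDMs came from the marrow of male C57BL/6 mice, 8 weeks old, and were differentiated with M-CSF. All BMDM libraries, vehicle included, were exposed to 100 ng/mL of LPS and to ATP at 1 mM, the pair of signals that primes and triggers the NLRP3 inflammasome. The treated BMDMs also received auranofin for 1 h, at 0.1 µM by the sample labels and 0.3 µM by a figure legend of the study. The study turned from the RNA of the HSCs, read for pathways that auranofin altered, to their migration, and it examined CD44 as the protein that stabilizes the cystine transporter xCT (Slc7a11). No source states that replicates were separate cultures or animals, so the p-values below measure the spread between these libraries, which may be technical.

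The values are FPKM, fragments of a gene relative to transcript length and library size. From the step that 1 fragment makes in lowly expressed genes, depth was estimated at 29800000 to 39400000 fragments in HSCs and 27500000 to 34900000 in BMDMs. The labelled cell types were checked with marker lists. In HSCs, 12 of 13 stellate and fibroblast markers reached a mean of 1 FPKM, and the vehicle libraries summed to 4158 and 4239 FPKM over the list and the auranofin libraries to 3592 and 3670 FPKM. Macrophage markers summed higher still in the HSC libraries. Their summed level was 10110 to 10296 FPKM over the 4 libraries, with lysozyme (Lyz2, 5379 to 5554 FPKM) as the largest contributor. The 10 liver endothelial markers summed to 373 to 404 FPKM. The level of a gene in HSC libraries is therefore that of a culture with macrophage and endothelial transcripts in it. Fewer cells of a type and less RNA per cell cannot be told apart in bulk RNA. In BMDMs the macrophage sum was 9119 to 9674 FPKM and the stellate sum 6.55 to 12 FPKM.

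The auranofin libraries of BMDMs stood apart from each other. Among the 4245 genes at 10 FPKM or more, a gap of 2-fold or more separated the auranofin libraries in 383 and the vehicle libraries in 14, whereas in HSCs the counts were 19 and 13 of 6430. Results for BMDMs are therefore given library by library, and those of the tested members also without each auranofin library.

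Promoter windows of mm10 from RefSeq, 250 bases upstream and 50 bases downstream of a transcript start, were found for 8 of the 10 genes. Thbs1 and Fn1 had no entry. The windows of 3 genes are shown, those of Thbs2 and Tnc, which lay below vehicle in both auranofin libraries of HSCs, and that of Spp1, the most abundant of the genes in BMDMs. Thbs3, Postn, Sparc and Cd44 also lay below vehicle in both auranofin libraries of HSCs, and their windows are not shown. For Tnc and Spp1, which have a second annotated start, the window of the first is shown. Each is written 5′ to 3′ on the strand of the gene, with matches to the searched motifs in capitals.
Thbs2, chr17:14694213-14694512, minus strand: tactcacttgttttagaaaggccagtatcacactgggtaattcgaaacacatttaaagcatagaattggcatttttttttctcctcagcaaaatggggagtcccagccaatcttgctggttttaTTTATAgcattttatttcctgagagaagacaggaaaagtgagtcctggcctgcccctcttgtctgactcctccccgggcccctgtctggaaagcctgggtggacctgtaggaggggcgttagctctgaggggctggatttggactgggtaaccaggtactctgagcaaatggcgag
Tnc, chr4:64046966-64047265, minus strand: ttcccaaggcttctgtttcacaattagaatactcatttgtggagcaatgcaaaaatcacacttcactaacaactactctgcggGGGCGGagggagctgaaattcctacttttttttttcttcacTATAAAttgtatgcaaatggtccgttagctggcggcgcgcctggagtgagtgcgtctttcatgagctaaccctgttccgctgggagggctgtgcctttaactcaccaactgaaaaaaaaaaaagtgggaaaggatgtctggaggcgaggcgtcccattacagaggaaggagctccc
Spp1, chr5:104434861-104435160, plus strand: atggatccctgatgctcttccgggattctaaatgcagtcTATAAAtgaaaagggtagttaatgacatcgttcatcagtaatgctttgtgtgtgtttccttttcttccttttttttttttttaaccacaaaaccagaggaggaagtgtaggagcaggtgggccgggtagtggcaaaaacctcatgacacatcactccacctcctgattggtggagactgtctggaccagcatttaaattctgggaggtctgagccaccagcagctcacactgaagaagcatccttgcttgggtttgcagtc

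Each window was searched on both strands for 4 motifs. The TATA box was spelled TATAAA, the AP-1 site TGANTCA, the core of the antioxidant response element TGACNNNGC, and the GC box, which the factor SP1 binds, GGGCGG. The capitals mark letter matches only, and whether any of them acts in transcription was not tested. Other spellings of a motif were not searched. In Thbs2 they are the TATA box letters read on the opposite strand, beginning 126 bases upstream of the start. In Tnc they are the GC box letters, 167 bases upstream, and the TATA box letters, 126 bases upstream. In Spp1 they are the TATA box letters, 211 bases upstream. Of all 32851 promoter windows, 13.6% held the TATA box letters and 35.7% the GC box letters. Among the other windows, the TATA box letters lay 26 bases upstream of the second annotated start of Postn and also upstream of Vtn. The GC box letters lay in the windows of Cd44 and Thbs3. From the second start of Tnc, the TATA box letters lay 205 bases and the GC box letters 246 bases upstream. The second window of Spp1 had no match. The antioxidant response element core, present in 12.4% of windows, matched only in the first window of Postn. The AP-1 letters, present in 7.81%, matched in none of the windows of the 8 genes, and Sparc had no match to any motif.

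In vehicle-treated HSCs the genes covered a wide range of levels. Fn1 (985 FPKM) and Sparc (934 FPKM) were the highest and overlapped between libraries. Below them followed Spp1 (411 FPKM), Thbs1 (299 FPKM), Tnc (149 FPKM), Postn (89.9 FPKM), Cd44 (47.1 FPKM), Thbs2 (29.7 FPKM) and Thbs3 (6.2 FPKM), each separated from its neighbour in both libraries. Vtn was nearly absent. The order was the same with auranofin. The 10 genes together held 0.655% and 0.713% of all FPKM in the vehicle libraries and 0.584% and 0.631% in the auranofin libraries.

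BMDMs had a different order. Spp1 (4626 FPKM in vehicle) alone made up 92.5% to 93.9% of the summed level of the 10 genes and ranked 9 of all 17408 listed genes. Cd44 (256 FPKM) and Thbs1 (38.7 FPKM) followed, and Sparc (2.64 FPKM) and Fn1 (1.75 FPKM) were low. Tnc (0.894 FPKM) and Postn (0.881 FPKM) overlapped, Thbs2 was at 0.355 FPKM, and Thbs3 and Vtn overlapped under 0.05 FPKM. The tables were normalized separately, so no test between the cell types was made. Side by side, the vehicle mean of Fn1 was 562 times higher in the HSC table, that of Sparc 353 times, of Tnc 166 times, of Postn 102 times and of Thbs2 83.8 times, but that of Thbs1 only 7.71 times. Spp1 was 11.2 times and Cd44 5.43 times higher in the BMDM table.

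**Figure D1:**
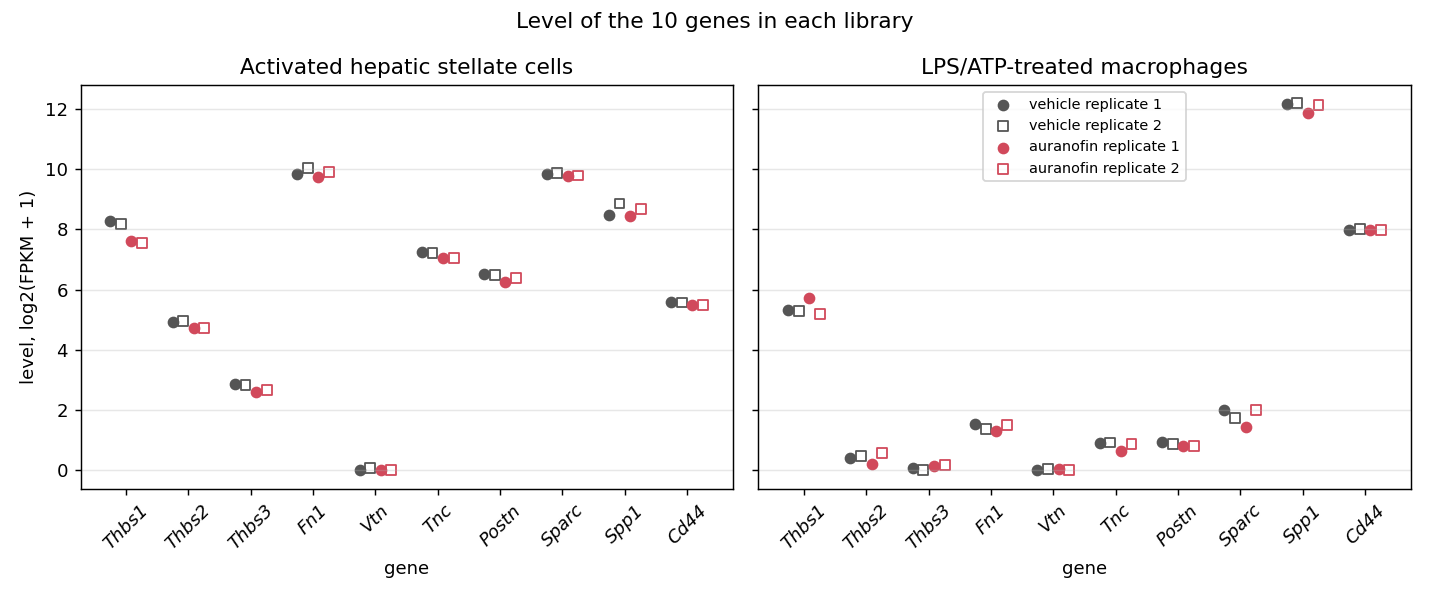
Level of each gene as log2(FPKM + 1) in the 4 libraries of HSCs (left) and of BMDMs (right), with filled circles for replicate 1 and open squares for replicate 2, vehicle in grey and auranofin in red. Fn1 and Sparc are highest in HSCs, Spp1 and Cd44 in BMDMs, and Vtn is at or near 0 in both.

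In HSCs, Thbs1 was the only member that passed the test after adjustment over all genes tested. It fell by 35.7% with auranofin, and the other 8 genes tested were lower in mean by 5.46% to 15.9% without passing the test. The test was limma on log2(FPKM + 1) over 12149 genes, those averaging 1 FPKM or more, with p-values adjusted by Benjamini-Hochberg. Vtn did not reach that mean and was not tested. With this test, 1 of 9 members passed an adjusted p of 0.05, against 2.33% of all genes tested (132 lower, 151 higher). By the thresholds of the figures of the study, 1.5-fold and an unadjusted p under 0.05, 1 of 9 passed, again Thbs1, against 0.576%.

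The 9 genes leaned to one side. All had a negative log2 fold change, against 47.8% of all genes tested, and their median was -0.17, against 0.00 for all genes. In 7 of 9 both auranofin libraries lay below both vehicle libraries, against 23.9% of all genes, and the same 7 had an unadjusted p under 0.05 with a lower mean, against 9.22%. The exceptions were Fn1 and Spp1. The genes share libraries and are not independent of each other. Of the stellate and fibroblast markers, 8 of 12 had a negative log2 fold change, and the median was -0.09. The other 4 were positive, namely Lrat (0.22), Lox (0.13), Pdgfra (0.09) and Reln (0.09). Of the 12 only α-smooth muscle actin (Acta2), the marker of HSC activation, passed the test. It measured 956 and 965 FPKM in vehicle and 743 and 737 FPKM in auranofin (log2 fold change -0.38, limma adjusted p = 0.00719). The macrophage sum stayed within 10110 to 10296 FPKM. The part of these cell contents in the lower values of the members was not tested.

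**Figure D2:**
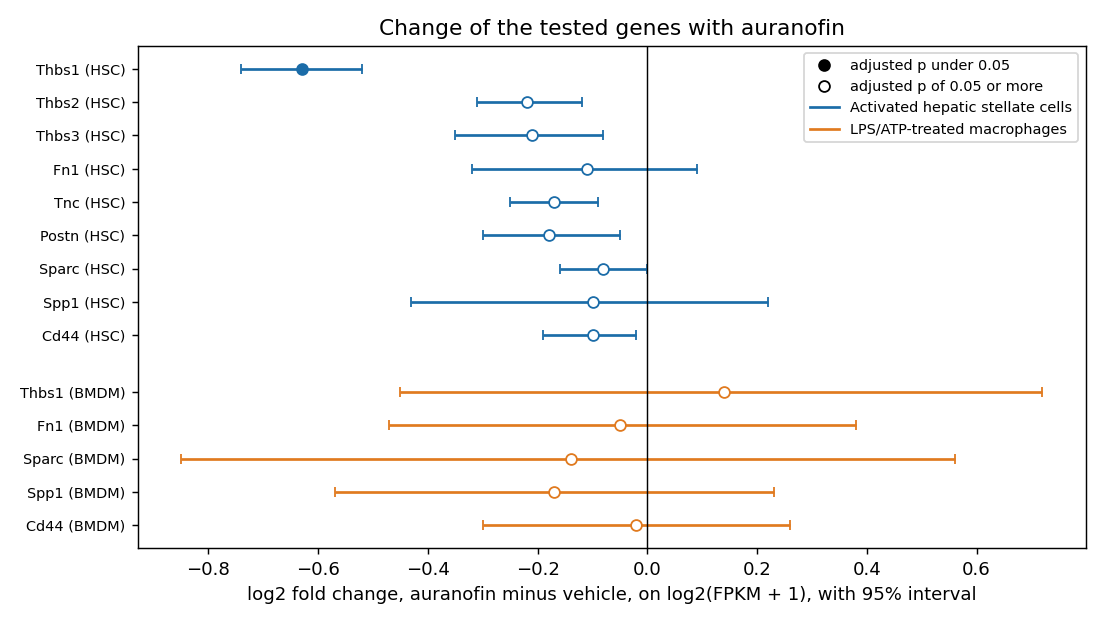
Log2 fold change of each tested gene, auranofin minus vehicle, on log2(FPKM + 1), with its 95% interval from limma. Thbs1 in HSCs, at -0.63, is the filled point with an adjusted p under 0.05, and all intervals in BMDMs include 0.

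The thrombospondins are secreted glycoproteins that bind calcium, CD47 and integrins. Thrombospondin-1 and -2 form trimers, carry the type 1 repeats that bind CD36 and inhibit angiogenesis, and differ in that thrombospondin-1 can activate latent TGF-β. Thbs1 (chromosome 2, 118111876 to 118127133) measured 307 and 290 FPKM in the vehicle libraries of HSCs and 197 and 187 FPKM in the auranofin libraries. Both auranofin libraries were far below both vehicle libraries. The group means were 298.6 ± 11.5 and 192.1 ± 7.45 FPKM (SD, n = 2 each). The log2 fold change was -0.63 (SE 0.04, 95% interval -0.74 to -0.52, limma adjusted p = 0.00445), which placed Thbs1 at rank 28 by p among the genes tested. It lost the call in the fit with unmoderated variances (limma adjusted p = 0.29) and held it in the other 12 alternatives.

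Thbs2 (chromosome 17, 14665500 to 14694262), the close relative of Thbs1, measured 29.2 and 30.2 FPKM in vehicle and 25.5 and 25.3 FPKM in auranofin. The groups did not overlap and the spread within each was small, at 29.71 ± 0.719 and 25.42 ± 0.175 FPKM (SD, n = 2 each). The log2 fold change was -0.22 (SE 0.04, limma adjusted p = 0.0569), just outside the threshold. Thbs3 (chromosome 3, 89215180 to 89226841), which forms pentamers and is expressed in cartilage and bone, measured 6.28 and 6.12 FPKM in vehicle and 5.08 and 5.35 FPKM in auranofin. These groups did not overlap either (log2 fold change -0.21, SE 0.05, limma adjusted p = 0.123). A long non-coding RNA, LOC115489723, overlaps Thbs3 in the annotation. Within each library, Thbs1 stood at 10.5 and 9.61 times Thbs2 with vehicle and at 7.73 and 7.39 times with auranofin. Its share of the summed level of the 3 thrombospondins was 89.6% and 88.9% with vehicle and 86.6% and 85.9% with auranofin.

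Fibronectin and vitronectin carry the Arg-Gly-Asp motif that integrins recognize and anchor cells to the matrix. Fn1 (chromosome 1, 71585473 to 71653280) measured 919 and 1050 FPKM in vehicle and 855 and 964 FPKM in auranofin. By mean it was the highest of the 10 genes in HSCs, but it exceeded Sparc only in the replicate 2 libraries. The groups overlapped, and replicate 2 was the higher library in both, by 1.14 and 1.13 times. The means were 984.6 ± 93 and 909.7 ± 77.1 FPKM (SD, n = 2 each), and the log2 fold change was -0.11 with a 95% interval of -0.32 to 0.09 (SE 0.08, limma adjusted p = 0.528). A fall of Fn1 as large as that of Thbs1 lies outside this interval. The interval rests on variances moderated across genes, and none is given for unmoderated variances. The ratio of Thbs1 to Fn1 within a library was 0.334 and 0.277 with vehicle and 0.231 and 0.194 with auranofin.

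Vtn (chromosome 11, 78499120 to 78502325), made mainly by hepatocytes and carried in plasma, was listed at 0 FPKM in 3 HSC libraries and at 0.0515 FPKM in vehicle replicate 2, about 2.96 fragments. A count of 0 allows up to 3 fragments, which is 0.044 to 0.058 FPKM for Vtn in these libraries, and covers counting error only. The level of Vtn was thus at the limit of detection. Albumin (Alb), the main hepatocyte transcript, measured 0.455 and 1.22 FPKM in vehicle and 0.374 and 0.259 FPKM in auranofin. The library with Vtn fragments was also the one with the most Alb. Other listed hepatocyte markers were mixed, with Fgb, Fga and Hnf4a highest in vehicle replicate 1 and the rest in vehicle replicate 2. The part of hepatocyte RNA in the Vtn value was not tested. Of 10 listed hepatocyte markers only 1, transferrin (Trf), reached a mean of 1 FPKM in HSCs.

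Tenascin C is a large hexameric protein that weakens cell adhesion and reappears in wounded tissue. Tnc (chromosome 4, 63959785 to 64047015) measured 151 and 147 FPKM in the vehicle libraries of HSCs and 133 and 132 FPKM in the auranofin libraries. The groups did not overlap, with a log2 fold change of -0.17 (SE 0.03, limma adjusted p = 0.0695). Periostin binds integrins and promotes collagen cross-linking. Postn (chromosome 3, 54359267 to 54391041) measured 90.2 and 89.5 FPKM in vehicle and 75.7 and 83.3 FPKM in auranofin. The vehicle libraries were close together and the auranofin libraries lay below them but apart from each other (log2 fold change -0.18, SE 0.05, limma adjusted p = 0.162). The non-coding RNAs 8030451A03Rik and Gm31095 overlap Tnc and Postn, respectively.

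SPARC, or osteonectin, binds collagen and guides its assembly. Sparc (chromosome 11, 55394159 to 55420080) measured 922 and 946 FPKM in vehicle and 881 and 885 FPKM in auranofin. The groups did not overlap, but the difference was small, 5.46% of the mean (log2 fold change -0.08, SE 0.03, limma adjusted p = 0.279). Osteopontin is a phosphorylated ligand of CD44 and integrins made by both stellate cells and macrophages. Spp1 (chromosome 5, 104435111 to 104441053) measured 359 and 464 FPKM in vehicle and 351 and 412 FPKM in auranofin. It had the widest relative spread of the tested members in HSCs, with replicate 2 at 1.29 and 1.17 times replicate 1, and the groups overlapped. The log2 fold change was -0.10 with a 95% interval of -0.43 to 0.22 (SE 0.13, limma adjusted p = 0.736), and it turned to 0.08 without vehicle replicate 2 and to 0.01 without auranofin replicate 1.

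CD44 is the hyaluronan receptor, which also binds osteopontin and holds xCT at the cell membrane. Cd44 (chromosome 2, 102811141 to 102901669) measured 47.5 and 46.7 FPKM in the vehicle libraries of HSCs and 43.7 and 43.8 FPKM in the auranofin libraries. The groups were tight and did not overlap. The mean was 7.11% lower, with a log2 fold change of -0.10 (SE 0.03, 95% interval -0.19 to -0.02, limma adjusted p = 0.207). A level per gene does not separate the splice forms of Cd44, Fn1 or Tnc, and says nothing about the amount of protein.

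**Figure D3:**
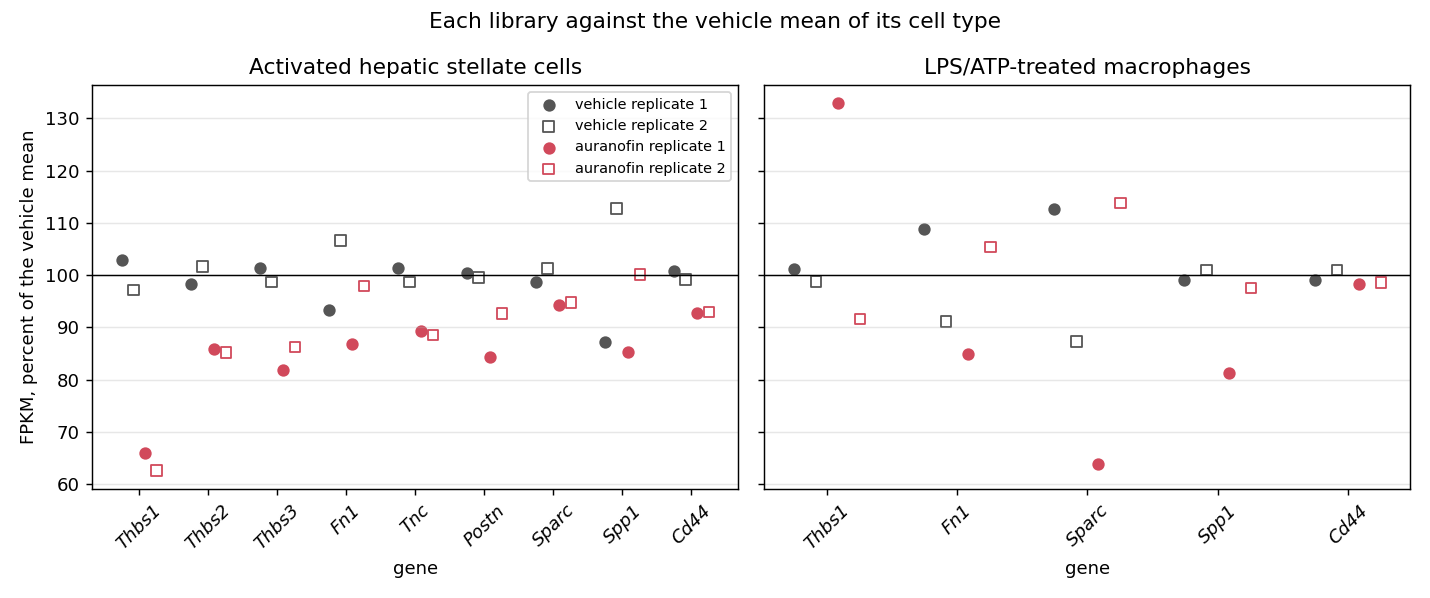
FPKM of each tested gene as a percent of the vehicle mean of its cell type (line at 100), with filled circles for replicate 1 and open squares for replicate 2, vehicle in grey and auranofin in red. In HSCs the red points lie below both grey points for every gene but Fn1 and Spp1, and in BMDMs the red circle is far from the red square for Thbs1, Sparc, Fn1 and Spp1.

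Genes that work with these proteins were counted from 5 lists, in which 9 genes passed the test in HSCs. Without the filter on low levels, none of these 9 passed (limma adjusted p from 0.0509 to 0.138), while Thbs1 did (limma adjusted p = 0.0409). Of 44 other matricellular and adhesive matrix proteins tested in HSCs, 1 fell and none rose, 31 had a negative log2 fold change, and the median was -0.09. The shares over all genes tested, for this and the following lists, are the 2.33% called and 47.8% negative given above, and 1 of 44 is near that share of calls. The one that fell was fibulin-5 (Fbln5), which organizes elastic fibres, with 21 and 20.9 FPKM in vehicle and 16 and 15.5 FPKM in auranofin (log2 fold change -0.39, limma adjusted p = 0.0121). The newer symbols of 5 CCN genes are not in the tables, which list these genes under their older symbols.

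Among 24 receptors of the members, 1 fell and 1 rose, with 19 negative (47.8% of all genes) and a median of -0.06. Stabilin-2 (Stab2), a scavenger receptor for hyaluronan and a marker of sinusoidal endothelium, measured 20.7 and 21.5 FPKM in vehicle and 15.9 and 16.3 FPKM in auranofin (log2 fold change -0.37, limma adjusted p = 0.0169). CD36 (Cd36), the receptor of thrombospondin-1 and of fatty acids, went the other way, from 207 and 197 FPKM to 234 and 242 FPKM (log2 fold change 0.24, limma adjusted p = 0.0464). The rise of Cd36 is near the threshold and lost the call in 8 of 13 alternatives. Beside Stab2, the 10 endothelial markers summed to 404 and 389 FPKM in vehicle and to 392 and 373 FPKM in auranofin. Of these markers 2 fell past the threshold, Stab2 itself among them. By sign, 6 of the 10 were negative and 4 positive. Among the positive were Cdh5 (0.14) and Kdr (0.17), which did not pass the test (limma adjusted p = 0.24 and 0.166). Beside Cd36, the Kupffer cell marker Clec4f rose from 58.6 and 59.2 to 73.5 and 69.1 FPKM (limma adjusted p = 0.0395). Clec4f was the only one of 14 tested macrophage markers to pass. A negative log2 fold change was found in 10 of the 14, among them Vsig4, another Kupffer cell marker (-0.03). The other 4 had a positive one, among them Cd5l (0.12) and Marco (0.09) beside Clec4f. The macrophage marker left untested, Timd4, measured 0.568 and 0.61 FPKM in vehicle and 0.262 and 0.29 FPKM in auranofin. The part of endothelial or Kupffer cell content in these receptor values was not tested.

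Of 17 ligands and partners of CD44, 1 fell and 1 rose, and the median was -0.04. Cemip, which degrades hyaluronan, measured 143 and 138 FPKM in vehicle and 105 and 100 FPKM in auranofin (log2 fold change -0.45, limma adjusted p = 0.00818). Slc7a11, the xCT subunit that CD44 stabilizes, rose from 2.37 and 1.77 FPKM to 4.15 and 4.07 FPKM (log2 fold change 0.74, SE 0.10, limma adjusted p = 0.0292). Slc7a11 and Cd44 thus had opposite signs, and the change of Cd44 did not pass the test.

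Of 13 genes of latent TGF-β and plasminogen, the axis through which thrombospondin-1 is known to act, 1 fell, 10 had a negative log2 fold change, and the median was -0.08. The one that fell was urokinase (Plau), a secreted protease that activates plasminogen, with 154 and 153 FPKM in vehicle and 126 and 132 FPKM in auranofin (log2 fold change -0.25, limma adjusted p = 0.0353). The groups did not overlap.

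Of 15 genes of matrix proteases and of their TIMP inhibitors, 3 fell and none rose, 10 had a negative log2 fold change, and the median was -0.08. The genes that fell were Adamts1, Adamts5 and Adamts9, which encode secreted metalloproteases. Adamts2 (-0.11) and Adamts4 (0.07) of the same family did not pass the test (limma adjusted p = 0.316 and 0.614). Adamts5 measured 21.2 and 19.3 FPKM in vehicle and 14 and 12.5 FPKM in auranofin (log2 fold change -0.58, limma adjusted p = 0.0227). Adamts1 measured 18.8 and 17.4 FPKM, then 12.4 and 12.2 FPKM (log2 fold change -0.52, limma adjusted p = 0.0113), and Adamts9 9.21 and 8.97 FPKM, then 6.57 and 6.87 FPKM (log2 fold change -0.39, limma adjusted p = 0.0236). In each of them the groups did not overlap.

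**Figure D4:**
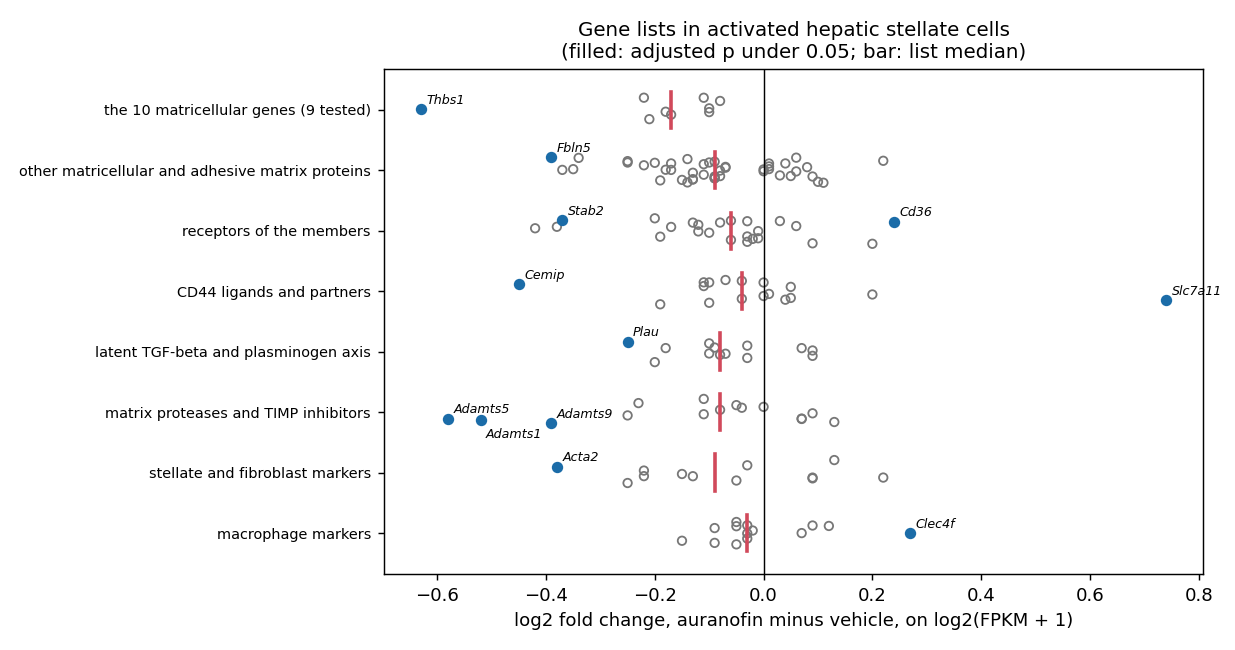
Log2 fold change in HSCs, auranofin minus vehicle, of the 9 tested members, of 5 lists of related genes and of stellate and macrophage markers, 1 point per gene, filled where the adjusted p is under 0.05, with a red bar at the median of each list. Thbs1 is the lowest point, Slc7a11 the highest, and the median of the members lies at -0.17.

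In BMDMs none of the 5 members tested passed the test with all 4 libraries in the fit. Without auranofin replicate 2, where limma called 5997 of the 9232 genes, 3 of the 5 passed, Thbs1 (limma adjusted p = 0.00189), Spp1 (limma adjusted p = 0.00146) and Sparc (limma adjusted p = 0.0392), and without auranofin replicate 1 none did. The 5 were Thbs1, Fn1, Sparc, Spp1 and Cd44, tested among 9232 genes. By limma 0 of 5 passed an adjusted p of 0.05 and 0 had an unadjusted p under 0.05, against 0.0108% and, for lower genes, 0.217% of all genes. By the 1.5-fold thresholds 0 of 5 passed, against 0.152%. Over all genes 49 had an unadjusted p under 0.05. A negative log2 fold change was found in 4 of 5, against 33.9% of all genes, and the median was -0.05, against 0.09 for all genes. Both auranofin libraries lay below both vehicle libraries in 2 of 5, against 12.6%.

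Spp1 measured 4579 and 4672 FPKM in the vehicle libraries of BMDMs and 3762 and 4513 FPKM in the auranofin libraries. Auranofin replicate 1 was well below the rest and replicate 2 only slightly. The means were 4626 ± 66 and 4137 ± 531 FPKM (SD, n = 2 each), and the log2 fold change was -0.17 with a 95% interval of -0.57 to 0.23 (SE 0.14, limma adjusted p = 0.721). The difference was -0.30 without auranofin replicate 2 and -0.04 without replicate 1.

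Cd44 measured 253 and 258 FPKM in vehicle and 251 and 252 FPKM in auranofin. All 4 libraries lay close together, and the fitted log2 fold change was -0.02 with a 95% interval of -0.30 to 0.26 (SE 0.10, limma adjusted p = 0.916). It was -0.02 without auranofin replicate 1 and -0.03 without replicate 2. Thbs1 measured 39.2 and 38.3 FPKM in vehicle and 51.5 and 35.5 FPKM in auranofin. The auranofin libraries lay on opposite sides of vehicle, at 0.40 and -0.12 on the log2 scale. These are also the values without the other auranofin library. The fitted log2 fold change was 0.14 with a 95% interval of -0.45 to 0.72 (SE 0.21, limma adjusted p = 0.775). The difference of this value from that in HSCs was not tested, since dose, time and table differ.

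The matrix genes were near the lower end in BMDMs. Fn1 measured 1.91 and 1.6 FPKM in vehicle and 1.49 and 1.85 FPKM in auranofin (log2 fold change -0.05, limma adjusted p = 0.884). Sparc measured 2.98 and 2.31 FPKM in vehicle and 1.69 and 3.01 FPKM in auranofin (log2 fold change -0.14, limma adjusted p = 0.8). In both the groups overlapped, and in both auranofin replicate 1 was the lowest library. Without it the log2 fold change was 0.05 for Fn1 and 0.14 for Sparc, and without replicate 2 it was -0.15 for Fn1 and -0.43 for Sparc. The summed level of stellate and fibroblast markers was also lowest there, 6.55 FPKM against 12 FPKM in auranofin replicate 2 and 9.45 and 7.88 FPKM in vehicle, and its part in these values was not tested.

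The other 5 members stayed under a mean of 1 FPKM in BMDMs and were not tested. Tnc measured 0.886 and 0.902 FPKM in vehicle and 0.55 and 0.822 FPKM in auranofin. Postn measured 0.928 and 0.834 FPKM, then 0.751 and 0.745 FPKM, and Thbs2 0.323 and 0.386 FPKM, then 0.17 and 0.504 FPKM. Tnc and Postn were lower in both auranofin libraries, and Thbs2 overlapped. Thbs3 measured 0.048 and 0.0114 FPKM in vehicle and 0.116 and 0.124 FPKM in auranofin. These values rest on few fragments, about 4.56 and 1 in vehicle and 12.9 and 13.7 in auranofin. Vtn was listed at 0 and 0.0416 FPKM in vehicle and 0.0327 and 0 FPKM in auranofin, which is about 2 and 1.99 fragments where it was above 0. Alb measured 0.711 and 3.09 FPKM in vehicle and 2.94 and 0 FPKM in auranofin. In BMDMs too the libraries with Vtn fragments were those with the most Alb, but on these few fragments. The part of hepatocyte RNA in the Vtn values was not tested.

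In BMDMs limma called 0 genes of the 5 lists of related genes, by an adjusted or an unadjusted p under 0.05. Slc7a11 showed the spread between the auranofin libraries most plainly, with 3.48 and 3.6 FPKM in vehicle and 59 and 2.87 FPKM in auranofin (log2 fold change 1.75, SE 1.40, limma adjusted p = 0.721). Auranofin replicate 1 was far above the other libraries, and replicate 2 was the lowest. Cd44, the partner of xCT, was at 251 and 252 FPKM in the same libraries.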

How the data were processed

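Poly(A) RNA of activated HSCs and LPS/ATP-treated BMDMs was sequenced with a stranded kit. The submitters' processing notes name CASAVA, FastQC 0.11.7, Trimmomatic 0.38, HISAT2 2.1.0, StringTie 1.3.4d and mm10. The authors deposited FPKM values per gene and library in 1 table per cell type, scaled by transcript length and library size. No counts were used, so depth was estimated from values under 0.2 FPKM of genes with 1 transcript, with GENCODE M21 lengths, and it covers counting error only.

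Groups and replicate numbers came from the sample titles. Each table was analysed alone. The deposited FPKM values were transformed to log2(FPKM + 1), genes averaging 1 FPKM or more across the 4 libraries were retained, and auranofin was compared with vehicle by limma (lmFit, eBayes with trend, two-sided, Benjamini-Hochberg over all genes tested, threshold 0.05). All fold changes use the transformed values, so those of low genes are understated. An exact permutation of 2 against 2 libraries cannot go under p = 0.333, so none was made. The fit was tested on simulated data. Coordinates and promoter windows are from RefSeq on GRCm38.p6, the assembly of mm10.

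The members and lists were chosen with earlier results of these data known. Named in the text are all members, genes of the related lists past the threshold (at most 4 each way per list) and Slc7a11. Acta2, Lyz2, Clec4f, Vsig4, Cd5l, Marco, Alb, Trf, Adamts2 and Adamts4 were named after their values were seen. So were Timd4, Cdh5, Kdr, Lrat, Lox, Pdgfra, Reln, Fgb, Fga and Hnf4a. Of the related lists, 1 gene is not reported here and was left out of its list. Alternatives changed 1 choice at a time: a pseudocount of 0.1, no filter, a mean of at least 5 FPKM, quantile normalization, median centring, eBayes without trend or robust, unmoderated variances, a block for the replicate number, the 1.5-fold thresholds and each library left out. The software was limma 3.58.1 in R 4.3.3, and Python 3.11.15 with pandas 2.3.3, numpy 2.4.6 and matplotlib 3.10.9.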

Additional observations from a re-analysis of the deposited data

Results flagged for a closer look

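Thbs3 differed in sign between the 2 cell types. On the log2(FPKM + 1) scale auranofin minus vehicle was 0.12 in BMDMs and -0.21 in HSCs, with every auranofin library above both vehicle libraries in BMDMs and below both in HSCs. The difference was not tested, since the tables were normalized separately, and the BMDM values rest on about 4.56 and 1 fragments in vehicle and 12.9 and 13.7 in auranofin.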

How the results depend on the processing

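In HSCs 1 member passed the adjusted threshold. The count was 2 with a mean of at least 5 FPKM (Thbs1 and Thbs2), 2 with quantile normalization (Thbs1 and Tnc), 3 with robust eBayes (Thbs1, Thbs2 and Tnc), 0 with no moderation, and 1 to 2 when each library was left out in turn (2 without vehicle replicate 1). In BMDMs the count was 0, and 0 to 3 with each library left out. The 3 came without auranofin replicate 2, where limma called 5997 of the 9232 genes tested. A group reduced to 1 library is assumed to vary like the other. With the replicate number as a replicate block the count of members was 1 in HSCs and 0 in BMDMs, and among the related genes Cd36 lost its call. The numbers are not stated to pair the libraries, and deviations of same-numbered libraries correlated across genes at 0.109 in HSCs (0.202 for genes of 10 FPKM or more) and -0.055 in BMDMs (-0.088).

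The log2 fold change of Thbs1 in HSCs ranged from -0.67 to -0.59 over 13 alternatives. Signs turned for Spp1 in HSCs (0.08 without vehicle replicate 2, 0.01 without auranofin replicate 1) and in BMDMs without auranofin replicate 1 for Thbs1 (-0.12), Fn1 (0.05), Sparc (0.14) and Slc7a11 (-0.23), and for Fn1 without vehicle replicate 1 (0.03). Without auranofin replicate 2 the values were 0.40 for Thbs1, -0.15 for Fn1, -0.43 for Sparc and 3.72 for Slc7a11 in BMDMs, and Spp1 in HSCs was at -0.29 without vehicle replicate 1. The other members tested kept their sign in all alternatives. Of the 9 related genes called in HSCs, none passed without the filter or with no moderation, Adamts9, Cd36, Plau, Slc7a11 and Stab2 failed without auranofin replicate 1, Cd36, Plau and Slc7a11 without auranofin replicate 2, and Cd36 without vehicle replicate 2. Without the variance trend Adamts5, Cd36, Plau and Slc7a11 failed (limma adjusted p from 0.0582 to 0.115), and with quantile normalization Cd36 (limma adjusted p = 0.0616).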
